A study of Mus musculus with 6 samples.

Results

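The genes described here encode the pores and auxiliary subunits of calcium, sodium, TRP and chloride channels in mouse endothelial cells. They were chosen by gene symbol: all Scn genes, Cacna, Cacnb and Cacng genes, Trpa, Trpc, Trpm and Trpv genes, Clcn genes, numbered Ano genes, P2rx genes, and the Ryr, Itpr and Piezo genes. The choice gave 98 of the 24421 genes in the count table. Of these, 96 are channel genes by family, and Trpc4ap and Trpc5os match the symbols but are not channels. Counts of channel genes below are over all 98 symbols and include Trpc4ap where it had the reads.

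RNA-seq of 6 libraries was made to ask how Dot1l, an enzyme that methylates histone H3 within the gene body, affects transcription in endothelial cells. The first pair came from E15.5 embryo skin. Blood endothelial cells (BECs) of Tie2-Cre(+);Dot1l 2f/2f embryos, labelled as the knockout (cKO), were set against those of Tie2-Cre(-);Dot1l 2f/2f littermates (Cont), so that both genotypes carried the floxed alleles. Cells had been depleted of F4/80, CD45 and Lyve1 positive cells and selected for CD31, and RNA of 2 to 3 embryos was pooled for each library. Tie2-Cre is active in endothelial and also in hematopoietic cells. The other 4 libraries came from yolk sac BECs (the line CRL-2581) and embryonic dermal lymphatic endothelial cells (LECs, the line C57-6064L). These were transduced with a lentivirus that carries an activator (dCas9 fused to VP64) and guides for the Dot1l promoter (OE) or with empty lentivirus (Cont), and 2 to 3 flasks of sorted GFP+ cells made each library. Each cultured cell type was thus 1 line, and line, tissue of origin and cell type cannot be told apart. There was 1 library per group, so each difference below is between 2 libraries and has no replicate check.

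Library totals ran from 8863349 reads in skin Cont to 31032461 reads in OE-LECs. Dot1l had 762 reads in skin Cont against 944 in the library labelled cKO, 86.0 and 85.2 counts per 1000000 reads (CPM), so they did not show the deletion. The study reports that RT-qPCR of Dot1l bore out the knockout, a measurement not analysed here. Counts over a whole gene do not separate the floxed part. Every direction given for this pair is therefore that of the library labelled cKO. In the OE pairs Dot1l went from 112 to 302 CPM in BECs and from 95.3 to 217 CPM in LECs. The identity markers did not all follow the labels: Lyve1 had 9105 and 19959 reads and Prox1 1304 and 883 reads in the skin BEC libraries, while Prox1, Pdpn and Ccl21a had 0 reads in both LEC libraries, where Lyve1 had 52184 and 60898 reads. The 6 lymphatic markers looked at summed to 748 and 1160 CPM in Cont and OE-BECs. They summed to 2105 and 2093 CPM in Cont and OE-LECs, and to 1953 and 2424 CPM in the skin pair. The ribosomal RNA precursor Rn45s took 5.91% and 10.9% of the reads in the Cont and OE-BEC libraries and under 0.6% in the others, and it is part of the totals behind every CPM.

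Ion channels let ions cross membranes down their gradients. In endothelial cells, which do not fire action potentials as neurons do, calcium enters mainly through mechanically gated Piezo channels, TRP channels, ATP-gated P2X receptors and store-operated channels, and is released from the endoplasmic reticulum through inositol trisphosphate (IP3) receptors. The rise in calcium drives nitric oxide synthesis, permeability and alignment to flow. Voltage-gated calcium and sodium channels are best known from muscle and nerve, and chloride leaves or enters through CLC proteins and the calcium-activated anoctamins.

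The channel genes differed widely in level. Of the 98 genes, 27 had at least 10 reads in every library and 5, among them Cacng2 and Trpv5, had no read in any, while 11 had reads that summed to under 10 over the 6 libraries. At least 1 read was found for 83 and 92 genes in the skin libraries, against 69 and 68 in cultured BECs and 61 and 61 in LECs. Over all genes, the skin libraries likewise held reads of more genes, 17760 and 18027 against 15016 to 15808 in the cultured libraries, although they were the shallowest. Together the 98 genes took between 1783 CPM (Cont LECs) and 3053 CPM (the library labelled cKO). In bulk RNA, fewer cells of a type and less RNA per cell cannot be told apart.

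**Figure D1:**
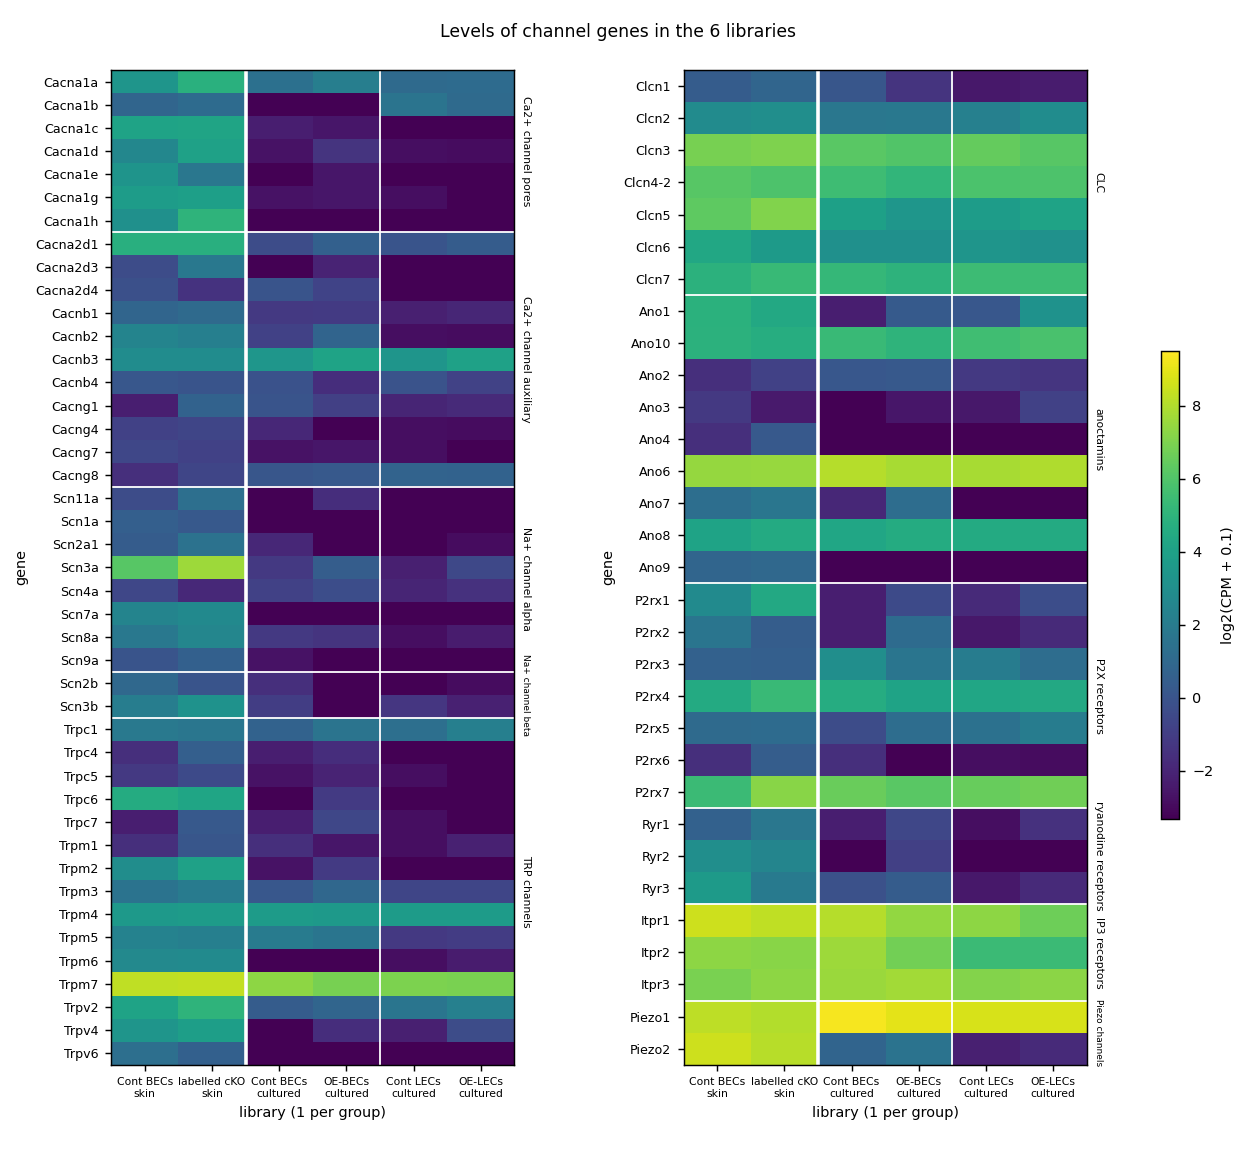
Levels of channel genes with 10 or more reads in a pair (rows, by family) in the 6 libraries (columns), as log2(CPM + 0.1), from 1 library each; the second column is the library labelled cKO. The voltage-gated calcium and sodium channel rows are filled mainly in the skin columns, while the IP3 receptor and Piezo1 rows are filled in all 6.

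Levels per kilobase of exon allow genes to be compared. Piezo1, the channel that opens when the membrane is stretched by flow, was the most abundant channel gene in every library but that labelled cKO, at 29.8 CPM per kilobase in skin Cont (25.9 in the other skin library), 63.9 and 50.3 in Cont and OE-BECs, and 42.1 and 42.9 in Cont and OE-LECs. In the annotation 24.6% of its exon bases are shared with Ctu2 on the other strand, which had 59 to 1201 reads where Piezo1 had 2623 to 13238. Trpm7, a channel for magnesium and calcium fused to a kinase, was at 27.2 and 28.2 CPM per kilobase in skin and at 10.2 to 14.1 in the cultured libraries. Ano6, a scramblase that also conducts ions, was even across all libraries, between 14.5 and 22.0 CPM per kilobase. The IP3 receptor Itpr3 was likewise found everywhere, from 13.6 to 23.5 CPM per kilobase. The order of neighbours this close rests on single libraries.

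**Figure D2:**
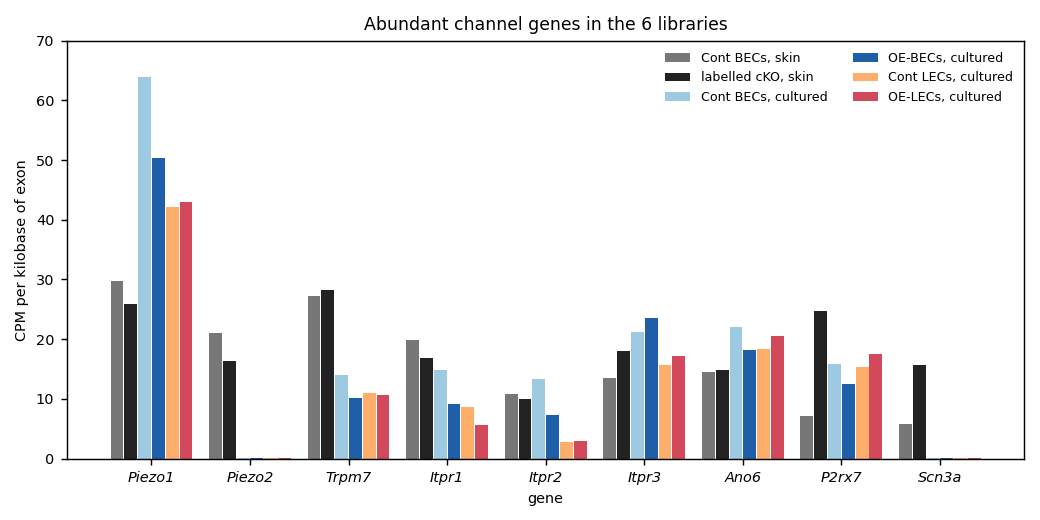
CPM per kilobase of exon for 9 abundant channel genes, with 1 bar per library and no replicates. Piezo1 is the tallest in the 4 cultured libraries, while Piezo2 and Scn3a stand only in the 2 skin libraries on this linear axis.

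The mechanically gated pair parted between skin and culture. Piezo2, the touch channel of sensory neurons and Merkel cells, had 3207 and 3119 reads in the skin libraries, 362 and 281 CPM. In the cultured cells it had 29 and 40 reads in Cont and OE-BECs and 3 and 6 reads in Cont and OE-LECs, 0.115 to 2.87 CPM. Neuronal markers were low in the same skin libraries, summing to 20.1 and 15.9 CPM over 7 genes, of which Snap25 was at 0 reads in both, and keratinocyte markers summed to 141 and 258 CPM over 8 genes. The part of other cell types in the Piezo2 level was not tested.

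In all, 19 of the 74 channel genes that had 10 reads or more over the skin pair (25.7%) had at most 3 reads in each of the 4 cultured libraries, against 12.2% of all genes with that floor. They were 4 of the calcium channel pores (Cacna1c, Cacna1e, Cacna1g and Cacna1h), 3 auxiliary subunits (Cacna2d3, Cacng4 and Cacng7), 5 of the sodium channel alpha subunits (Scn1a, Scn2a1, Scn7a, Scn9a and Scn11a), 5 TRP channels, Trpc4 and Trpm6 among them, and Ano4 and Ano9. No CLC, P2X, ryanodine, IP3 or Piezo gene was among them. The limits of this selection were chosen after the values were seen, and its shares are not matched for depth. Of the 74 channel genes, 32 had under 100 reads in the skin pair, against 4031 of all 15554 genes. Trpc6, a channel opened by diacylglycerol that was not among the 19, had 210 and 207 reads in skin and 0 and 5 in Cont and OE-BECs and 0 and 0 in the LEC pair, where 3 reads, the limit that a count of 0 allows, are 0.115 and 0.0967 CPM. Cacna1c, the L-type pore of heart and smooth muscle, had 154 and 200 reads in skin and 2, 1, 0 and 0 in culture. Pericyte and smooth muscle markers summed to 548 and 479 CPM in the skin libraries and to 5.48 to 6.75 CPM in the cultured ones, and fibroblast markers to 2532 and 1867 CPM against 2.83 to 20.4 CPM. Their part in these levels was not tested. The opposite pattern was found for 1 channel gene, Ano3, and for 3.97% of all genes with 10 reads or more over the cultured libraries. Ano3 reached that floor through OE-LECs, with 14 reads there. It had 0, 1 and 2 reads in Cont BECs, OE-BECs and Cont LECs, and 3 and 1 in the shallower skin libraries.

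Between the cultured cell types, 0 channel genes were more than 10 times higher in both LEC than in both BEC libraries, and 0 were as much lower, against 0.0635% and 1.13% of all genes. Nearest to it was Cacna1b, the N-type calcium channel pore of nerve endings, with 0 and 0 reads in the BEC libraries and 76 and 63 in the LEC libraries, at least 9.43-fold higher in the nearer pair with each BEC library set at 3 reads. Piezo2 was 8.48-fold lower in the nearer pair of LEC and BEC libraries, where LECs had only 3 and 6 reads. Trpm5, a calcium-activated cation channel of taste cells, had 70 and 42 reads in BECs and 9 and 12 in LECs, 7.80-fold lower in the nearer pair.

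Promoters are shown for the most abundant channel gene (Piezo1) and for 3 genes that the comparisons below turn on (P2rx7, Ano1 and P2rx1). Each is the 250 bases before the RefSeq start on GRCm38.p6, read 5′ to 3′ on the gene's own strand. P2rx7 lies at chr5:122643677-122643926 (plus strand), Piezo1 at chr8:122551330-122551579 (minus strand), Ano1 at chr7:144738574-144738823 (minus strand) and P2rx1 at chr11:72998895-72999144 (plus strand). In the annotation Ano1 spans chr7:144588549-144751974, so its window lies inside the annotated gene, before an internal RefSeq start. The last bases of the P2rx7 and P2rx1 windows also lie inside the annotated genes, which begin at 122643911 and 72999103. Capitals mark matches on either strand to TATAAA, to the GC box core GGGCGG, or to the ETS motif CCGGAAGT.
P2rx7: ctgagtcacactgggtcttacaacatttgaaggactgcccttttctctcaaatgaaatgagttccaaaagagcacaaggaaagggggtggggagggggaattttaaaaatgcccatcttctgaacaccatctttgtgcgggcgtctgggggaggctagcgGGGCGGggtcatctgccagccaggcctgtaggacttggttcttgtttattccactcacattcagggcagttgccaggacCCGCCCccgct
Piezo1: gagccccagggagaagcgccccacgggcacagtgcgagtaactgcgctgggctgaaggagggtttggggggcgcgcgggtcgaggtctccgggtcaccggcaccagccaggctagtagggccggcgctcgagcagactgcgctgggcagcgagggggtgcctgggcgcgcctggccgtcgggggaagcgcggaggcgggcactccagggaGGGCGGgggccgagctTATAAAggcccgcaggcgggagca
Ano1: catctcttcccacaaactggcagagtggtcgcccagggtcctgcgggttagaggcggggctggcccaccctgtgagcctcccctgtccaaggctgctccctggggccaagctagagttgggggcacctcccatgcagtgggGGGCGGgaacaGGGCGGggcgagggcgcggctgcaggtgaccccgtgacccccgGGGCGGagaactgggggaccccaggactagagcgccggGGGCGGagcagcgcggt
P2rx1: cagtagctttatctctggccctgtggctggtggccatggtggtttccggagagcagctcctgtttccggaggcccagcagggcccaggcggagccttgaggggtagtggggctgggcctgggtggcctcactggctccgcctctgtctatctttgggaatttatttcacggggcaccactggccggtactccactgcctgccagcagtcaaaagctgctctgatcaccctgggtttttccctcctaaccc
The windows differ in composition. Piezo1 is 74% and Ano1 72% G or C, with 26 and 16 CG dinucleotides, against 61.2% and 53.6% with 6 and 6 CG dinucleotides in P2rx1 and P2rx7. The median over 17748 mouse promoters of this length was 55.6%. GGGCGG occurs 4 times in Ano1, the nearest 17 bases before the start, and once or more in P2rx7 and Piezo1, and 43.1% of all promoters hold it. TATAAA is found in Piezo1, 24 bases before the start, and in 11.9% of all promoters. CCGGAAGT, which 3.90% of promoters hold, is in none of the 4 windows. These matches are descriptions of sequence and not sites.

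The skin pair was compared first. Counts were normalized by the median of ratios of the pair. A channel gene with 10 or more reads over both libraries was called if its larger normalized count reached 5 and exceeded the smaller by more than 3 times. Of the 74 channel genes with that floor, 10 rose in the library labelled cKO (13.5%), against 4.24% of all genes, and 3 fell (4.05%), against 1.7%. Ratios are given on the log2 scale, cKO over Cont, with an exact 95% interval that covers counting error only, since reads from PCR are not independent molecules. The interval lay above 0 for 26 genes (35.1%) and below 0 for 14 (18.9%), against 23.1% and 25.4% of all genes. Shares of intervals, here and below, are not matched for reads, on which the width of an interval depends. The median ratio was 0.11 over the channel genes and 0.0026 over all 15554 genes.

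Of the 7 ATP-gated P2X receptors, P2rx7 and P2rx6 rose past 3-fold, where 4.24% of all genes rose. P2rx7, the receptor of high ATP known for its role in macrophages and inflammasome activation, lies at chr5:122643911-122691432. Its 381 reads in skin Cont stood against 1632 in the library labelled cKO, a 3.30-fold rise (log2 ratio 1.72, interval 1.56 to 1.89). Its level in the library labelled cKO, 24.7 CPM per kilobase, was above the 12.4 to 17.4 of the cultured libraries, while that of skin Cont, 7.20, was below them. P2rx4, which begins 16.1 kb from the end of P2rx7, had 200 and 461 reads (log2 ratio 0.83, interval 0.58 to 1.07), short of 3-fold. P2rx1, the receptor of platelets and smooth muscle, had 62 and 236 reads, 2.93-fold, just under the threshold (log2 ratio 1.55, interval 1.14 to 1.98). P2rx6 rose from 2 to 14 reads, and P2rx2 had 27 and 14 reads (log2 ratio -1.33, interval -2.37 to -0.34). P2rx3 and P2rx5 stood at -0.17 and 0.04, with intervals that held 0.

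Voltage-gated calcium channel pores moved in both directions. Cacna1h, a T-type pore that opens near the resting potential, had 77 and 356 reads, a 3.56-fold rise (log2 ratio 1.83, interval 1.47 to 2.21). It lies at chr17:25374285-25433783 and shares 1.62% of its exon bases with Tpsg1, a tryptase gene on the other strand, which had 17 and 113 reads in the same libraries. Cacna1a (P/Q-type, 90 and 316 reads, 2.70-fold) and Cacna1d (L-type, 53 and 180 reads, 2.61-fold) stayed under the threshold with intervals above 0. Cacna1e, the R-type pore, fell from 86 to 37 reads, 3.02-fold, just past the threshold (log2 ratio -1.59, interval -2.19 to -1.02). For Cacna1c and Cacna1g the interval held 0. Among the auxiliary subunits, Cacna2d3 rose from 6 to 38 reads (log2 ratio 2.29, interval 1.03 to 3.82) and Cacng1, the gamma subunit of skeletal muscle, from 1 to 17 reads (log2 ratio 3.71, interval 1.04 to 9.09). Cacna2d4 was past the threshold on 7 and 3 reads, with an interval that held 0.

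The sodium channel alpha subunits leaned to the library labelled cKO. Of the 8 with the floor, the interval lay above 0 for 5 and below 0 for 0, against 23.1% and 25.4% of all genes. Past 3-fold was 1 of them, Scn11a, with 6 and 27 reads (log2 ratio 1.79, interval 0.49 to 3.36), where 4.24% of all genes rose. Scn3a, a subunit of embryonic neurons, was by far the most abundant, with 644 and 2168 reads, 2.59-fold (log2 ratio 1.37, interval 1.25 to 1.50). Scn2a1 had 11 and 30 reads and Scn8a 30 and 64 reads, both with intervals above 0. The beta subunit Scn3b, with 37 and 103 reads, also had a ratio above 0 (log2 1.10, interval 0.54 to 1.68).

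Among the channels of calcium stores and of membrane stretch, 1 of 8 was called, where 4.24% of all genes rose and 1.7% fell. Ryr3, a ryanodine receptor, had 112 reads in skin Cont and fell 3.64-fold, to 40 (log2 ratio -1.86, interval -2.42 to -1.33). Its exons overlap those of Aven on the other strand over 4.83% of their bases, and Aven had 101 and 164 reads. Ryr2 had 71 and 63 reads (log2 ratio -0.55) and Ryr1 13 and 36 (log2 ratio 1.09), so the family did not move as one. Itpr1 and Itpr2 had ratios of -0.30 and -0.17, while Itpr3 had 1085 and 1796 reads and a ratio of 0.35. Piezo1 and Piezo2 stood at -0.26 and -0.42. These 5 ratios have intervals that leave out 0 but are all under 3-fold.

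Of 16 TRP channels with the floor 3 rose, and of 7 CLC genes and 7 anoctamins 1 rose, all on few reads. Over all genes 4.24% rose, and 12.4% of those with under 100 reads in the pair. Trpc4, Trpc7 and Trpm1 rose on 2 to 15, 1 to 12 and 2 to 11 reads, and the interval of Trpm1 held 0. Trpm2, opened by ADP-ribose under oxidative stress, had 68 and 180 reads (log2 ratio 1.03, interval 0.62 to 1.45), and Trpv2 had 153 and 354 reads (log2 ratio 0.83, interval 0.55 to 1.12). The abundant Trpm7 was level, at a ratio of -0.0022 (interval -0.07 to 0.07). Trpc6 had 210 and 207 reads and a ratio of -0.40 (interval -0.68 to -0.11). Ano4 rose from 2 to 12 reads, and Ano1, the calcium-activated chloride channel of epithelia and smooth muscle, had 258 and 232 reads (log2 ratio -0.53, interval -0.79 to -0.27), with Ano10 at -0.32. Clcn5, an endosomal chloride and proton exchanger, had 713 and 1512 reads (log2 ratio 0.71, interval 0.58 to 0.84), against 180 and 139 for Clcn6 (log2 ratio -0.75, interval -1.08 to -0.42).

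Of the 10 genes that rose, 8 had under 100 reads in the pair. At that depth 8 of 32 channel genes rose (25%), against 12.4% of all genes, and 1 fell, against 5.16%. Among those with 100 or more reads, 2 of 42 rose (4.76%), P2rx7 and Cacna1h, against 1.37%, and 2 fell, Ryr3 and Cacna1e, against 0.495%. Cell type markers differed between the same libraries. Macrophage markers summed to 3689 CPM (Cont) and 5862 CPM (labelled cKO), with 8 of 8 at a ratio above 0, mast cell markers to 2839 and 4034 CPM (5 of 6), keratinocyte markers to 141 and 258 CPM (6 of 8, with Krt1 and Krt10 past 3-fold), and Schwann and neural crest markers to 36.8 and 53.0 CPM (6 of 6). None of these markers was at 0 reads in both libraries. Blood endothelial markers summed to 6353 and 3954 CPM, with 9 of 10 at a ratio below 0, and of the fibroblast markers 6 of 7 were below 0. The part of these cells in the channel ratios was not tested.

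**Figure D3:**
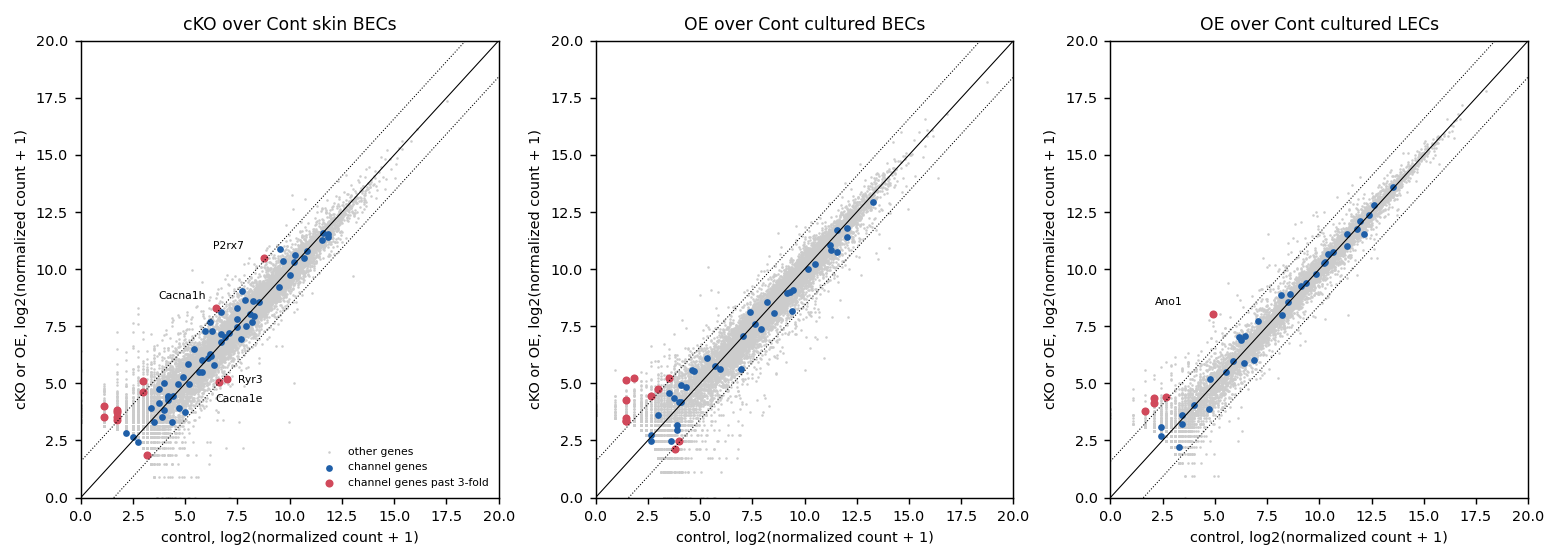
Normalized counts of each gene that had 10 reads or more over both libraries, control on the x axis and cKO or OE on the y axis, as log2(normalized count + 1), with other genes in grey, channel genes in blue and channel genes past 3-fold in red. The solid line marks equality and the dotted lines 3-fold on this scale, while the call uses counts without the added 1. Most red points lie at few reads, and named are those with at least 100 reads in the pair, 4 in skin (P2rx7, Cacna1h, Ryr3 and Cacna1e) and Ano1 in LECs.

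OE-BECs were then compared with Cont BECs to ask which genes respond to forced Dot1l expression, by the same call with a minimum normalized count of 3. Of 48 channel genes with the floor, 9 rose (18.8%), against 3.25% of all genes, and 2 fell (4.17%), against 3.46%. All of these 11 genes had under 100 reads in the pair, a depth at which 9 of 25 channel genes rose (36%) and 2 fell (8%), against 13.6% and 10.8% of all genes. Of the 23 with 100 or more reads, 0 rose and 0 fell, against 0.565% and 1.53%. The interval lay above 0 for 16 genes and below 0 for 17, against 27.4% and 30% of all genes, and the median ratio was 0.05, beside -0.01 over all genes.

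Of the 9 genes that rose, 3 were P2X receptors and 2 anoctamins. P2rx2 rose from 2 to 30 reads (log2 ratio 4.29, interval 2.31 to 7.40). P2rx5 rose from 12 to 32 reads (1.80, interval 0.80 to 2.89) and P2rx1 from 2 to 9 (2.55, interval 0.28 to 5.80), while P2rx3, a receptor of sensory nerves, had 143 and 43 reads, 2.55-fold lower (log2 ratio -1.35, interval -1.88 to -0.85). The family thus held ratios on both sides of 0, and P2rx4 and P2rx7, its most abundant members here, were at -0.46 and -0.31. Ano7 rose from 3 to 32 reads (3.80, interval 2.12 to 6.15) and Ano1 from 2 to 16 (3.38, interval 1.29 to 6.55). Scn3a (6 to 18 reads), Cacnb2 (8 to 23), Trpc7 (2 to 8) and Ryr1 (2 to 8) also rose. Cacnb4 fell from 15 to 3 reads and Clcn1, the muscle chloride channel, from 17 to 4.

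Most of the abundant channel genes were lower in OE-BECs, by less than 3-fold. Of the IP3 receptors, Itpr1 had 4819 and 2352 reads (log2 ratio -0.65, interval -0.72 to -0.58) and Itpr2 3467 and 1520 (-0.81, interval -0.89 to -0.72). Itpr3 had 3380 and 2954 reads and a ratio of 0.19 (interval 0.12 to 0.26), so that the 3 receptors did not share a direction. Piezo1, Trpm7, Ano6, Ano10 and Clcn4-2, all abundant in Cont BECs, had ratios of -0.31, -0.42, -0.24, -0.33 and -0.36. Of the 7 CLC genes with the floor, the interval lay below 0 for 5, including Clcn5 at -0.54, against 30% of all genes, a share not matched for reads. Cacnb3, a beta subunit that brings calcium channel pores to the membrane, was higher instead, at 190 and 241 reads (log2 ratio 0.73, interval 0.45 to 1.01), as was Ano8 at 0.34. Blood endothelial markers summed to 7470 and 4666 CPM in this pair, with 9 of 10 at a ratio below 0. Of the 10, 2 (Flt1 and Cldn5) were past 3-fold lower, where 3.46% of all genes fell. The relation of these markers to the channel ratios was not tested.

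In LECs, 40 channel genes had the floor. Of these, 5 rose in OE-LECs (12.5%), against 1.49% of all genes, and 0 fell, against 0.867%. The interval lay above 0 for 16 genes (40%) and below 0 for 4 (10%), against 24.2% and 21.4% of all genes, with a median ratio of 0.13 beside 0.0046. Ano1 was the one gene past 3-fold with 100 or more reads, of 27 such channel genes (3.70%), against 0.584% of all genes higher and 0.237% lower. It rose from 27 reads in Cont LECs to 280 in OE-LECs, 8.84-fold (log2 ratio 3.14, interval 2.57 to 3.77). Per kilobase it went from 0.166 to 1.45 CPM, below the 4.66 and 3.35 of the skin libraries. Trpv4, a channel of osmotic and shear stress, rose from 3 to 21 reads (2.58, interval 0.83 to 4.96), and it had 92 and 160 reads in skin. Ano3 rose from 2 to 14 reads, Scn3a from 3 to 18 and P2rx1 from 5 to 22. These 4 genes are among 13 with under 100 reads in the pair (30.8%), against 6.3% of all genes of that depth higher and 4.21% lower.

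Below 3-fold, several channel genes were higher in OE-LECs. Trpc1, a cation channel subunit, had 64 and 141 reads (log2 ratio 0.91, interval 0.47 to 1.36), Cacnb3 had 266 and 503 (0.69, interval 0.47 to 0.91), and P2rx5, Clcn2 and Trpv2 had ratios of 0.65, 0.64 and 0.64. Lower were P2rx3, with 108 and 70 reads (-0.86, interval -1.31 to -0.41), Itpr1, with 4120 and 3186 (-0.60, interval -0.67 to -0.53), and Clcn3, with 2333 and 2230 (-0.30, interval -0.38 to -0.21). Itpr2 did not leave 0 (0.03, interval -0.08 to 0.15). Blood endothelial markers summed to 6257 and 5589 CPM in this pair, with 8 of 10 at a ratio below 0 and none past 3-fold.

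**Figure D4:**
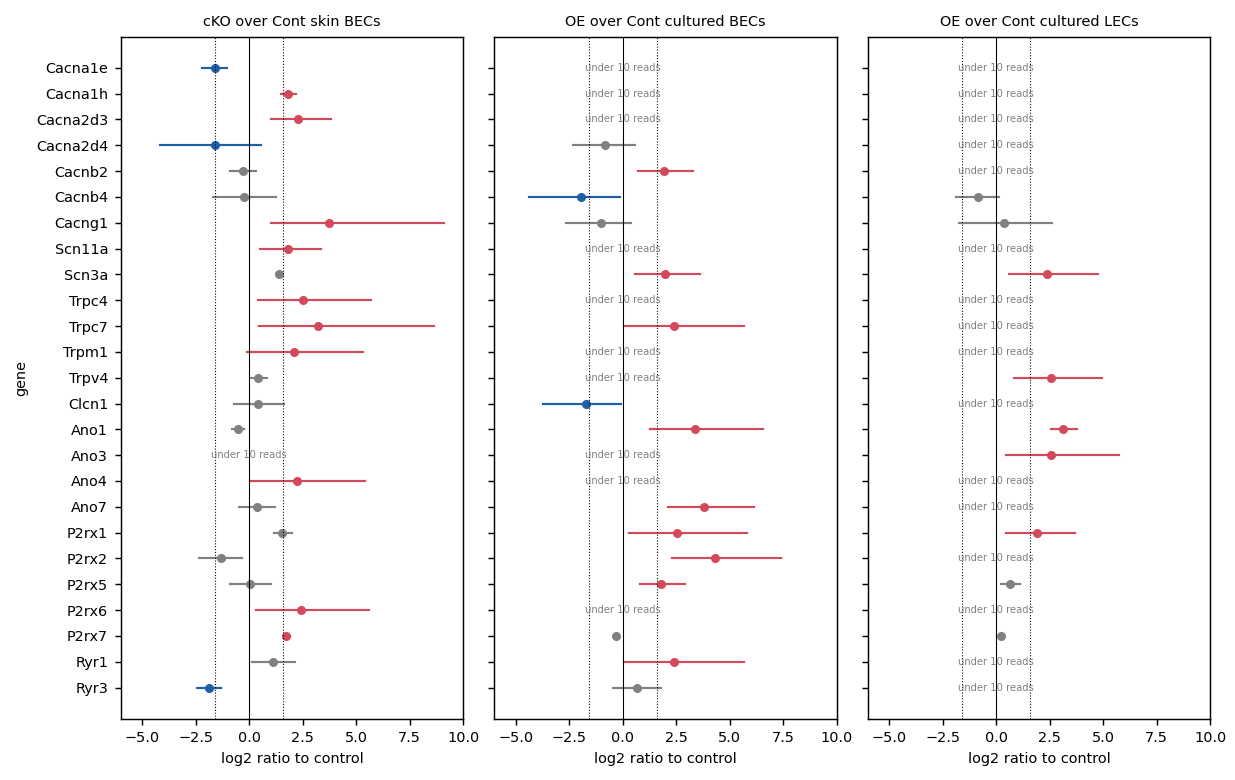
Log2 ratio to control, in the 3 comparisons, of each channel gene called in any of them, with exact 95% intervals from counting error of 1 library per group; red is past 3-fold higher, blue past 3-fold lower, grey neither, and dotted lines mark 3-fold. Intervals narrow with reads: that of Ano1 in LECs runs from 2.57 to 3.77, and that of Ano1 in BECs, on 2 and 16 reads, from 1.29 to 6.55.

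The OE pairs share no library, so their calls can be set side by side. Among the 36 channel genes with the floor in both pairs, 4 rose in OE-BECs and 3 in OE-LECs, and 3 rose in both: Ano1, P2rx1 and Scn3a. These are 75% of the former and 100% of the latter, where over all 12570 genes the 42 that rose in both were 17.1% of 246 and 32.3% of 130. Except for Ano1 in LECs, each of these rises rests on at most 22 reads in the higher library. Under 3-fold, Itpr1 and P2rx3 were lower and Cacnb3 was higher in both. Of the channel genes that rose in the library labelled cKO, Trpc7, on 12 reads, also rose in OE-BECs. It is 1 of the 3 that had the floor in both pairs (33.3%), where over all genes 34 of 273 (12.5%) rose in both. Ano1 and Scn3a had their highest reads in skin relative to depth, and in the skin pair Ano1 was at -0.53 and Scn3a at 1.37.

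Genes that work with these channels gave the following counts. Over all genes with the floor, 4.24% rose and 1.7% fell in the library labelled cKO. In OE-BECs 3.25% rose and 3.46% fell, and in OE-LECs 1.49% rose and 0.867% fell. Of the store-operated entry genes, calcium pumps, exchangers and mitochondrial uptake genes, 1 of 21 rose and 0 fell in the library labelled cKO (Atp2c2, 1 to 10 reads), and 0 of 16 rose or fell in OE-BECs and in OE-LECs. Of calmodulin, calcineurin and other calcium signalling targets, 1 of 27 rose in the library labelled cKO, Rcan2, a calcineurin inhibitor, from 49 to 282 reads (log2 ratio 2.15, interval 1.71 to 2.62), and 0 of 23 and 0 of 22 in the OE pairs. The medians of both lists lay between -0.14 and 0.12 in every pair.

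Other chloride, sodium and related cation channels held larger single ratios. The shares over all genes are those given for the lists above. In the library labelled cKO, 3 of 24 rose and 0 fell: Best1 from 20 to 98 reads (1.91, interval 1.21 to 2.69), the lysosomal Mcoln3 from 4 to 55 (3.40, interval 1.97 to 5.33), and Cftr from 2 to 171. Cftr, the chloride channel of epithelia, was lower in both OE pairs without passing 3-fold, with 1167 and 361 reads in BECs (log2 ratio -1.31, interval -1.48 to -1.14) and 473 and 267 in LECs (-1.06, interval -1.28 to -0.84). Ttyh1 fell in both OE pairs, 12.6-fold in BECs (1772 to 108 reads) and 5.34-fold in LECs (501 to 110 reads). Best2 was past 3-fold in OE-BECs on 3 and 7 reads. Of the 22 and 20 genes of this list with the floor in the OE pairs, the others were not called.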

How the data were processed

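RNA-seq libraries were made by the authors with the ScriptSeq v2 kit. Reads were trimmed with skewer, aligned to mm10 with STAR and counted per gene with VERSE, and the authors deposited raw counts for 24421 gene symbols in 6 columns. Whether counting used strand is not given in the sources used here. Totals were 8863349 to 31032461 reads, and 3 reads, the floor of a library, are 0.0967 to 0.338 CPM.

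Groups follow the sample labels, with 1 library in each. The channel genes, the other gene lists and the rules were chosen with earlier results of these data known, and the selection of genes seen in skin alone (at least 10 reads in the skin pair, at most 3 in each cultured library) was chosen after their values were seen. Counts were normalized within each pair by the median of ratios (DESeq2 1.42.0, R 4.3.3). Calls followed the study's rule of more than 3 times with a minimum normalized count of 5 (cKO) or 3 (OE), on every gene that had 10 reads or more over both libraries, and ratios have exact (Clopper-Pearson) 95% intervals. With 1 library per group no test was possible. A 0 was set at 3 reads for a ratio. Genes were compared as CPM per kilobase of exon (GENCODE M21). Promoters came from RefSeq (GRCm38.p6), which held 75 of the 98 genes (76.5%), so no property of promoters was compared over the genes.

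Named are all called channel genes, the 5 largest ratios in each direction under 3-fold with an interval that leaves out 0 and at least 100 reads, the 5 most abundant genes per control, and the genes that differ between the cultured types. Other channel genes were named for their family or role after their values were seen. Some genes that the rule names are not reported here. The steps were tested on simulated counts that held counting error alone, with changes set only in genes with 100 or more reads in the pair. The simulation thus cannot show how the call behaves under variation between libraries. Nor can it show how well changes are found in genes with fewer reads. Alternatives were total counts, TMM and an exact test of edgeR 4.0.16, other floors and folds, and a pseudocount of 1. Python 3.11.15 with pandas 2.3.3 and scipy 1.17.1 was used.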

Additional observations from a re-analysis of the deposited data

Results flagged for a closer look

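Abundant channel genes had ratios of opposite sign in the OE pairs, with intervals that leave out 0 in each. Clcn5 stood at -0.54 in OE-BECs and 0.35 in OE-LECs, Ano10 at -0.33 and 0.27, P2rx7 at -0.31 and 0.21, Ano6 at -0.24 and 0.18, and Piezo1 at -0.31 and 0.05. All are under 3-fold, each rests on 1 library per group, and the difference between the cell types was not tested. The Piezo1 interval in LECs, 0.009 to 0.08, covers counting error only. Total counts lower the ratios of that pair, for Trpc1 from 0.909 to 0.891. Whether the Piezo1 interval leaves out 0 thus depends on the scaling.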

How the results depend on the processing

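Counts of called channel genes depended on how genes with few reads were treated, as the read floors show. In skin, the 10 genes higher in the library labelled cKO became 4 with at least 20 reads in the pair and 19 at more than 2 times. The 3 lower became 1 with total counts, 5 with no floor, 5 at more than 2 times and 1 with a pseudocount of 1. In OE-BECs, the 9 higher became 5 with at least 20 reads and 15 with no floor, and the 2 lower became 1 with at least 20 reads, 7 with no floor, 6 at more than 2 times and 1 with a pseudocount of 1. In OE-LECs, the 0 lower became 1 at more than 2 times. Between the cultured types, the 0 higher and 0 lower in LECs became 1 and 2 at more than 5 times. edgeR's exact test, run at an assumed coefficient of variation of 0.4, called 0 in the skin pair in either direction, 0 and 0 in OE-BECs, and 0 of the 5 higher in OE-LECs. This value of the variation is an assumption, since no group has a replicate. Cacna1e and Cacna2d4 lie just past 3-fold in skin, which is why total counts and the pseudocount end both calls. TMM ends that of Cacna1e alone (log2 ratio -1.58), which gives 2 lower genes. Over the alternatives, the median ratio of the channel genes ran from 0.08 to 0.17 in skin and from 0.11 to 0.18 in OE-LECs. In OE-BECs it ran from -0.04, with at least 20 reads, to 0.12, with no floor. All 220 alternative values of the named genes kept their direction. These genes had been chosen by their ratios or intervals, and the alternatives moved the ratios too little to change a sign. The kept direction is therefore no check of them.

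No paired analysis was possible because each group has 1 library. Leaving out a library was not possible for the same reason. Depth limits the genes with few reads: a count of 0 allows up to 3 reads.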

Other observations

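Several channel genes lie side by side in the genome: 21 neighbouring pairs were under 500 kb apart, and in 9 of them both genes had at least 10 reads in the skin pair. Scn3a and Scn2a1 on chromosome 2, 53.1 kb apart, had ratios of 1.37 and 1.07 in the library labelled cKO. In the adjoining cluster Scn1a, Scn9a and Scn7a, with gaps of 39.2 and 38.5 kb, stood at -0.38, 0.62 and 0.25, all with intervals that hold 0. On chromosome 14, Cacna2d3 and Cacna1d, 318 kb apart, stood at 2.29 and 1.39, and on chromosome 6, Cacna1c and Cacna2d4, 40.1 kb apart, at -0.00083 and -1.60. On chromosome 11, P2rx1 and P2rx5, 145 kb apart, both rose in OE-BECs (2.55 and 1.80) and stood at 1.91 and 0.65 in the LEC pair. These pairs were described after their values were seen, and no test of neighbourhood was made.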
